A study of Mus musculus with 6 samples.

Results

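MERVL and MT2 repeats are endogenous retroviral sequences that include the element transcribed by mouse embryos at the 2-cell stage. Their RNA was measured here in embryos with conditional deletion of the genes of histone H3.3. The members are the repeat names that begin with MERVL or MT2 in the deposited count tables. They are 7 of 1217 names, all with enough counts to be among the 853 tested: MERVL-int and MERVL_2A-int, which stand for internal retroviral sequence, and the LTR (long terminal repeat) names MT2A, MT2B, MT2B2, MT2C_Mm and MT2_Mm. Each name sums many genomic copies, and the tables do not say which copies gave the reads or whether a copy lies inside a gene. Polyadenylated RNA came from 6 whole embryos at E10.5, of mixed C57BL/6, CD1 and 129 background, with 3 embryos in each group. Knockout embryos carried a floxed and a null allele of both H3f3a and H3f3b, the genes of H3.3. Control embryos carried a floxed and a wild-type allele of both. The Sox2-Cre transgene (Tg/0), a recombinase active in the epiblast, and the Trp53-/- genotype were common to both groups. The controls are thus neither wild type for p53 nor free of Cre. Where Cre acts on the floxed allele they keep only the wild-type allele of each H3.3 gene, so their H3.3 genes are not fully intact. Extraembryonic lineages, where Sox2-Cre is largely inactive, may keep floxed alleles intact. The labels do not say whether the embryos were littermates, and a p-value here speaks only of the spread among these 6 samples. Reads that aligned to several places were left uncounted, so young copies that are nearly identical are under-represented.

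MERVL is a retrovirus-like element whose internal part encodes Gag and Pol proteins and whose LTR, MT2_Mm, acts as a promoter. At the 2-cell stage this promoter drives the element itself and chimeric transcripts of neighbouring genes, under activators such as Dux. Later the copies are silenced by histone demethylation and methylation, the corepressor TRIM28 and replication-coupled chromatin assembly. Histone H3.3 is the H3 variant laid down outside DNA replication, by HIRA in genes and by DAXX and ATRX in heterochromatin, including that of retroviral elements.

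The libraries held 24952853 to 30461689 gene counts and 2661391 to 4600118 repeat counts. H3f3a had 9851, 10775 and 9685 counts in controls 1 to 3 and 1818, 1744 and 1996 in knockouts 1 to 3. For H3f3b the counts were 19717, 21379 and 18942 against 12164, 13626 and 11431, and the groups did not overlap in either gene. Mean levels were 67.6 CPM (counts scaled to a library of 1000000 counts) in knockouts against 349 in controls for H3f3a, and 455 against 691 for H3f3b. Relative to controls that carried a floxed allele themselves, most of the H3f3b counts thus remained in the embryos labelled knockout. Counts per gene do not show which part of the gene was read, nor how much H3.3 protein was left. Markers of neural tube, heart and primitive red cells, the expected tissues of a whole embryo at this stage, were present in all 6 libraries. Trp53, deleted in all embryos by the labels, still gave 64, 87 and 88 counts in controls against 148, 86 and 136 in knockouts. Which part of the gene the allele lacks is not described in the labels, so these counts check nothing. The 4 macrophage markers (Csf1r, Cx3cr1, C1qb and Mrc1) summed to 42.6 to 51.4 CPM in controls and 1.51 to 2.25 in knockouts, where fewer cells and less RNA per cell cannot be told apart. The 2 groups overlapped in the sum of the 5 trophoblast markers, at 1.89 to 2.65 and 1.89 to 2.22 CPM. Most of this sum came from Plac1, with Tpbpa and Prl2c2 at 0 counts. They also overlapped in the sum of the 4 germ cell markers, at 2.15 to 2.85 and 1.99 to 2.35 CPM, mostly from Ddx4. Of these, Dppa3 had 5, 2 and 3 counts in controls and 0 in each knockout and was not tested, while the others overlapped. Liver bud and visceral endoderm markers summed to 156 to 254 CPM in controls and 76.5 to 174 in knockouts, with 1 of 3 tested genes called (Ttr, the thyroid hormone carrier transthyretin, lower in knockouts). The share of alignments outside genes was 9.79%, 10.7% and 13.1% in controls 1 to 3 and 18.3%, 10.6% and 18.0% in knockouts 1 to 3. Knockout 2 thus stood with the controls in this share, and the tests below were also run without it.

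The internal sequence names read higher in knockouts 1 and 3 and at control level in knockout 2. MERVL_2A-int, the internal sequence with the most counts, had 97.9, 107 and 124 CPM, here repeat counts scaled to the gene counts of the same library, in controls 1 to 3. Its knockout values were 142, 102 and 147 CPM. MERVL-int, the internal part of the element with the MT2_Mm LTR, had 9.45, 9.72 and 13.4 CPM in controls against 19.3, 8.78 and 20.5 CPM in knockouts. Knockout 2 lay between controls 1 and 2 for MERVL_2A-int and below all 3 controls for MERVL-int, while knockouts 1 and 3 lay above all controls for both. MERVL_2A-int averaged 109.9 ± 13.5 CPM in controls and 130.5 ± 25.2 in knockouts (SD, n = 3). MERVL-int averaged 10.9 ± 2.20 and 16.2 ± 6.45 CPM.

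The LTR names too were highest in knockouts 1 and 3, and the other 4 libraries overlapped. MT2B had 69.7, 84.1 and 102 CPM in controls against 150.5, 77.1 and 152 CPM in knockouts. MT2A had 39.5, 44.6 and 55.6 CPM against 72.1, 39.7 and 72.4 CPM. MT2B2 had 32.8, 36.8 and 44.6 CPM against 56.1, 34.0 and 59.0 CPM. In these 3 names knockout 2 lay between controls 1 and 2, and control 3 was the highest control. MT2_Mm, the promoter LTR of MERVL, had 8.83, 9.72 and 12.3 CPM in controls against 15.7, 8.17 and 17.8 CPM in knockouts. MT2C_Mm, the name with the fewest counts, had 6.01, 7.06 and 11.0 CPM against 16.4, 6.26 and 15.5 CPM. For MT2_Mm knockout 2 was the lowest of all 6 libraries, and for MT2C_Mm only control 1 was lower. Mean levels in controls and knockouts were 85.4 ± 16.4 and 126 ± 42.7 CPM for MT2B and 10.3 ± 1.81 and 13.9 ± 5.04 CPM for MT2_Mm (SD, n = 3). In all 7 names the SD of the knockouts was larger than that of the controls. Levels are not compared between names, since the tables give no lengths for them. The smallest count behind any of these values was 174, for MT2C_Mm in knockout 2, with an exact 95% Poisson interval of 149 to 202 counts, which covers counting error only.

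**Figure D1:**
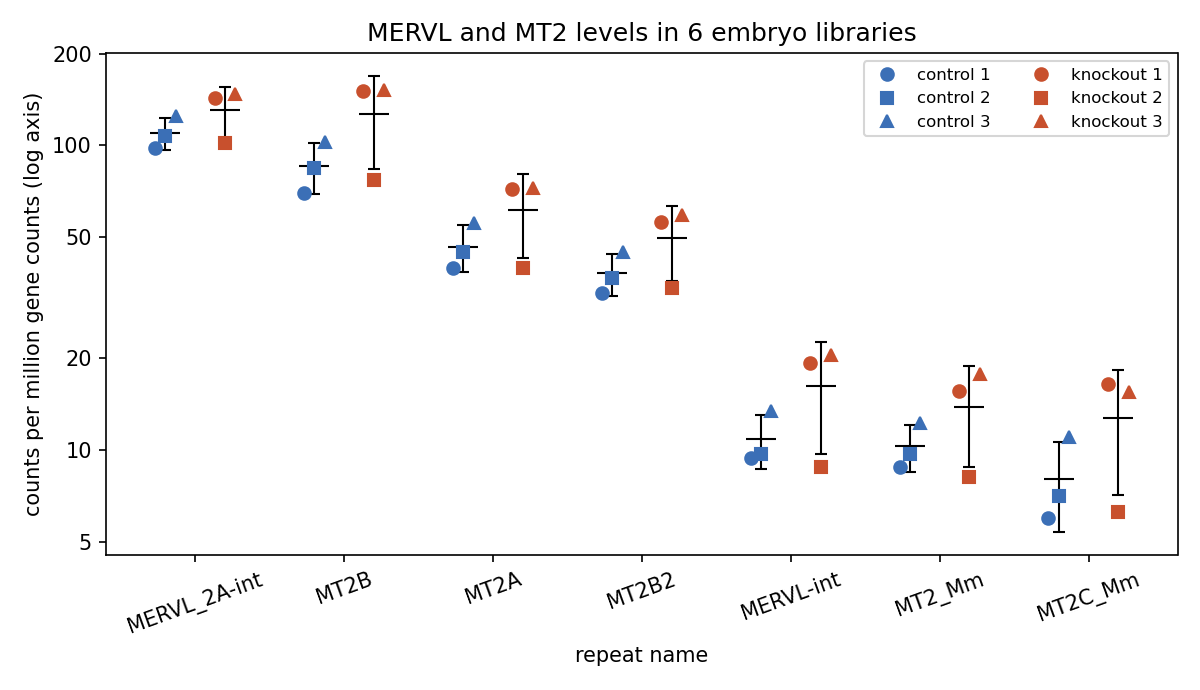
CPM relative to gene counts (log axis) of the 7 MERVL and MT2 names, with controls in blue and knockouts in orange, symbols for embryos 1 to 3, and black bars for the mean and SD of 3 embryos. Knockouts 1 and 3 lie above every control for each name and knockout 2 lies among or below the controls, for example 19.3, 8.78 and 20.5 CPM of MERVL-int in knockouts 1, 2 and 3.

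No MERVL or MT2 name passed the test between knockout and control embryos. All 7 had log2 fold changes above 0 at this scaling, from 0.25 ± 0.23 (SE) for MERVL_2A-int to 0.66 ± 0.40 for MT2C_Mm, with edgeR adjusted p-values of 0.272 to 0.434. MERVL-int was at 0.58 ± 0.34, MT2B at 0.57 ± 0.31, MT2_Mm at 0.43 ± 0.32, MT2A at 0.40 ± 0.30 and MT2B2 at 0.38 ± 0.28. The 95% intervals held 0 for all 7 and were wide, from -0.29 to 0.78 for MERVL_2A-int and from -0.25 to 1.58 for MT2C_Mm. These data therefore do not show that the levels are alike, only that a difference was not detectable against the spread between embryos. Of all 853 repeat names tested, edgeR called 0 at an adjusted p under 0.05, which is 0%. At an unadjusted p under 0.05 it had 99 names, all higher in knockouts (11.6%), none of them a member. DESeq2 called 2 of all names and limma-voom 0, again with no member among them. The groups of 3 were fully apart, with knockouts higher, for 0 of the 7 members and for 10.3% of all tested names.

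The folds of the members lay inside the bulk of all repeat names. The median log2 fold change was 0.43 over the 7 members and 0.54 over all 853 tested names, of which 94.1% were above 0. MT2B and MERVL-int stood near the middle, at the 53.2 and 54.6 percentile of all folds. MT2C_Mm stood at the 62.4 percentile and MERVL_2A-int at the 19.8 percentile, the highest and lowest among the members.

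**Figure D2:**
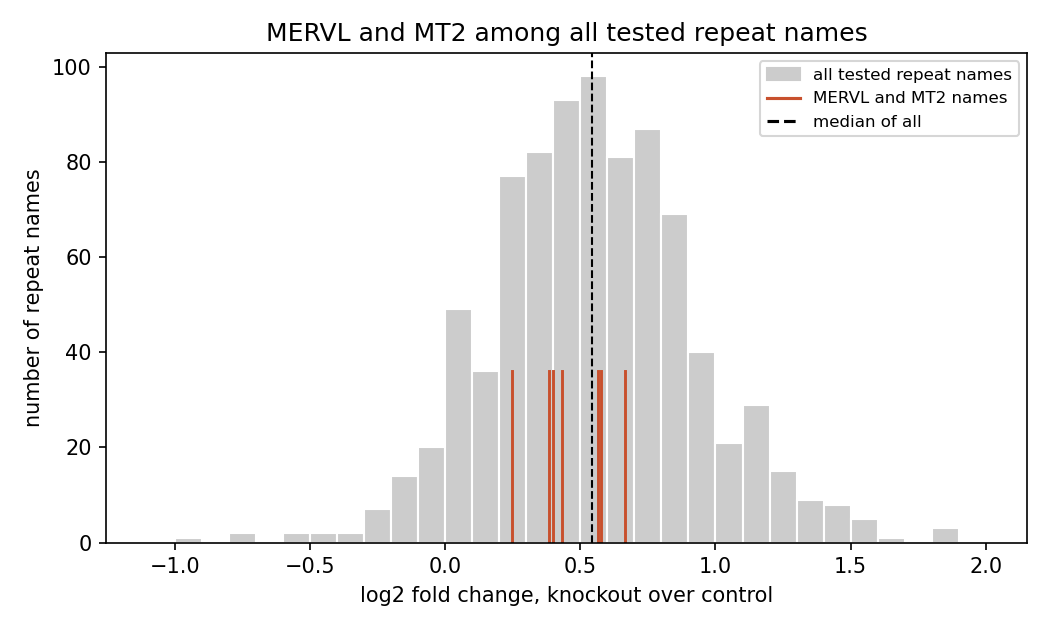
Number of repeat names by log2 fold change of knockout over control (gray bars, 853 tested names), with the 7 MERVL and MT2 names as orange lines and the median of all names as a dashed line at 0.54. The members lie from 0.25 to 0.66, on both sides of the median.

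Summed over the 7 names, the level ran alongside the share of alignments outside genes over the 6 libraries. Part of this likeness is built in, since gene counts enter both measures and reads of repeats outside genes count in both. MERVL-int and MT2_Mm, the 2-cell element and its LTR, made up only 3.74% and 3.36% of the member counts. MERVL_2A-int and MT2B made up 33.5% and 29.3%, so the sum says little about the 2-cell element itself. The sum was 264, 299 and 364 CPM in controls 1 to 3 and 473, 276 and 484 CPM in knockouts 1 to 3. Its mean was 309 ± 50.5 CPM in controls and 411 ± 117 in knockouts (SD, n = 3), a ratio of 1.33. Within groups the highest library was 1.38 times the lowest among controls and 1.76 times the lowest among knockouts, and the SD of the knockouts exceeded the difference between the means. Sorted by the share outside genes the order was control 1, knockout 2, control 2, control 3, knockout 3 and knockout 1. Sorted by the summed level it was the same except that knockouts 3 and 1 changed places. The knockouts fall into 2 separate clusters in both measures, so no correlation is given, and the part of this share in the fold was not tested. Ribosomal RNA names, a sign of how much ribosomal RNA a library kept, took 76.4%, 64.2% and 57.5% of repeat counts in controls against 50.9%, 59.8% and 35.9% in knockouts, lowest in knockouts 1 and 3. For Rn45s, a ribosomal RNA gene, the share of gene counts was 8.05%, 4.70% and 3.98% in controls against 3.73%, 4.24% and 2.06% in knockouts, and the part of either in the fold was not tested. Per 1000000 reads outside genes the members had 1807, 1854 and 1807 counts in controls against 1555, 1839 and 1642 in knockouts, where knockouts 1 and 3 were the lowest of the 6.

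**Figure D3:**
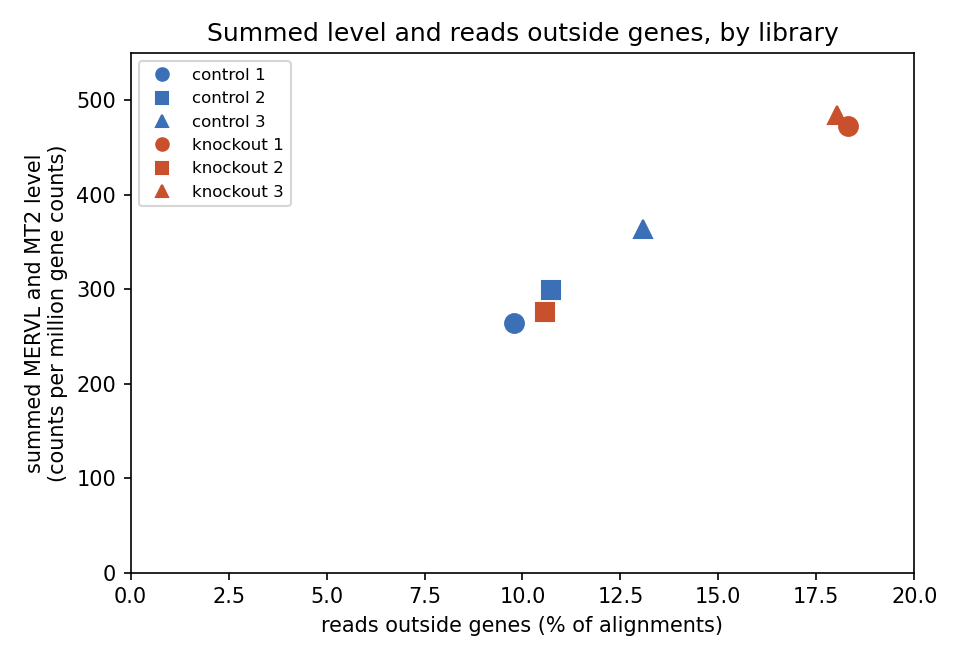
Summed level of the 7 names (CPM relative to gene counts, vertical axis) against the percent of alignments outside genes (horizontal axis), 1 point per library. Knockout 2 lies at 10.6% and 276 CPM among the controls, while knockouts 1 and 3 lie together at 18.3% and 18.0% with 473 and 484 CPM.

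Without knockout 2, 6 of the 7 names were called as higher by edgeR, and the log2 ratio of the summed levels was 0.63 in place of 0.41. Called as higher were also 63.9% of the 895 names then tested. The knockout left out here is the one at control level, so these p-values are selected and only describe the other 5 libraries, and leaving out any other library gave 0 calls. MERVL-int had a log2 fold change of 0.88 (adjusted p = 0.00728), MT2B of 0.82 (0.00693) and MT2C_Mm of 0.99 (0.00864). MT2_Mm, MT2A and MT2B2 were at 0.70, 0.64 and 0.60, with adjusted p-values of 0.0141, 0.0168 and 0.0208. MERVL_2A-int, at 0.40, had an adjusted p of 0.059. The median of the members was then 0.70 and that of all tested names 0.80, so the share of members called stood beside a call for most repeat names. Macrophage markers summed to 2.25 CPM in knockout 2, far below all controls. The summed MERVL and MT2 level of knockout 2 was in the range of the controls, while MERVL-int and MT2_Mm were below all controls. A relation between these markers and the repeat levels was not tested.

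The direction of the folds depended on the library size used. With TMM factors of the gene counts (a scaling that assumes most genes are unchanged) the median of all names went from 0.54 to 0.48 and the members kept folds of 0.19 to 0.60. Scaled by the repeat counts themselves with TMM factors, the median of all names was 0.02, a shift of more than 0.1 from that with gene totals. These factors bring the typical fold of repeat names near 0 by construction, so folds on this scale are relative to other repeats. On that scale MERVL_2A-int was at -0.24, MT2B2 at -0.13, MT2A at -0.13 and MT2_Mm at -0.11. MERVL-int at 0.02, MT2B at 0.03 and MT2C_Mm at 0.11 were above 0, and no member was called, with adjusted p-values of 0.388 to 0.937. The intervals of all members were narrower here, least wide for MT2A (-0.30 to 0.05) and MT2B (-0.16 to 0.22). They were wider for MERVL_2A-int, from -0.54 to 0.05, and widest for MT2C_Mm, from -0.29 to 0.52. With reads outside genes as the library size, an alternative chosen after seeing the data, the same 4 names were below 0, from -0.25 for MERVL_2A-int to -0.13 for MT2_Mm. Relative to the median of all names with gene totals, MT2C_Mm was 0.12 above it, MERVL-int 0.03 above and MT2B 0.02 above. MERVL_2A-int stood at -0.30, MT2B2 at -0.16, MT2A at -0.14 and MT2_Mm at -0.11 relative to that median.

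**Figure D4:**
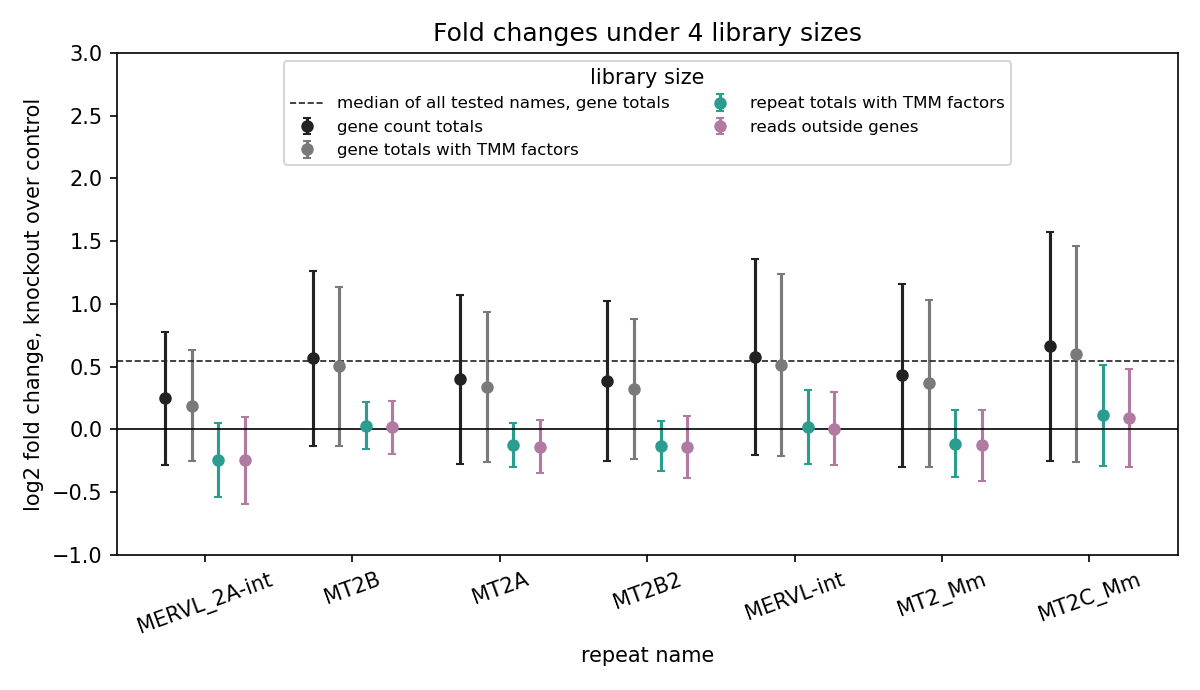
Log2 fold changes of knockout over control for the 7 names with 95% intervals (bars), under 4 library sizes given by colour, with a dashed line at the median of all tested names for gene totals (0.54). Points lie above 0 with both gene-based sizes and near 0 with both others, where 4 of the 7 are below it.

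Among the members, MERVL_2A-int took a smaller share and MT2B a larger share of the counts in the libraries with high levels. MERVL_2A-int made up 37.1%, 35.9% and 34.2% of member counts in controls against 30.1%, 36.8% and 30.4% in knockouts. MT2B made up 26.4%, 28.1% and 28.1% in controls against 31.8%, 28.0% and 31.3% in knockouts. Knockouts 1 and 3 were lowest for MERVL_2A-int and highest for MT2B, and knockout 2 lay within the range of the controls for the first and just under its top for the second. Counts in LTR names were 1.46, 1.56 and 1.64 times those in internal names in controls against 1.92, 1.50 and 1.88 times in knockouts. MERVL-int had 9.65%, 9.06% and 10.8% as many counts as MERVL_2A-int in controls against 13.5%, 8.65% and 13.9% in knockouts. MT2_Mm and MERVL-int are the LTR and the internal part of one element, and their count ratio was 0.93, 1.00 and 0.92 in controls against 0.81, 0.93 and 0.87 in knockouts. These ratios are a description chosen after the values were seen, with no test.

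Other LTR elements were likewise highest in knockouts 1 and 3, which lay above every control in their sums. MaLR repeats (names beginning ORR1, MT with a letter A to E, MLT1 or MST) are distant relatives of MERVL that code for no Pol protein, and IAP repeats are younger retroviral elements. The 100 MaLR names summed to 1509, 1760 and 2138 CPM in controls against 2998, 1623 and 2956 CPM in knockouts. Against them the MERVL and MT2 counts were 17.5%, 17.0% and 17.0% in controls against 15.8%, 17.0% and 16.4% in knockouts. The 16 IAP names summed to 158, 194 and 229 CPM in controls against 259, 169 and 233 CPM in knockouts, with knockout 3 only just above control 3. Log2 ratios of the summed levels were 0.49 for MaLR and 0.19 for IAP, against 0.41 for the members. Median log2 fold changes put IAP above the members instead, at 0.67 over the 14 tested names against 0.43. The median of the 79 tested MaLR names was 0.52, and edgeR called 0 names in each set. Without knockout 2 it called 57 of 81 MaLR names and 9 of 14 IAP names, all higher, with medians of 0.75 and 0.90. Per 100000 repeat counts outside ribosomal RNA names, the members had 741, 743 and 771 counts in controls against 773, 715 and 769 in knockouts. The means of 752 ± 16.5 and 752 ± 32.2 (SD, n = 3) differed by less than the spread between embryos. No difference between the members and these sets was tested.

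**Figure D5:**
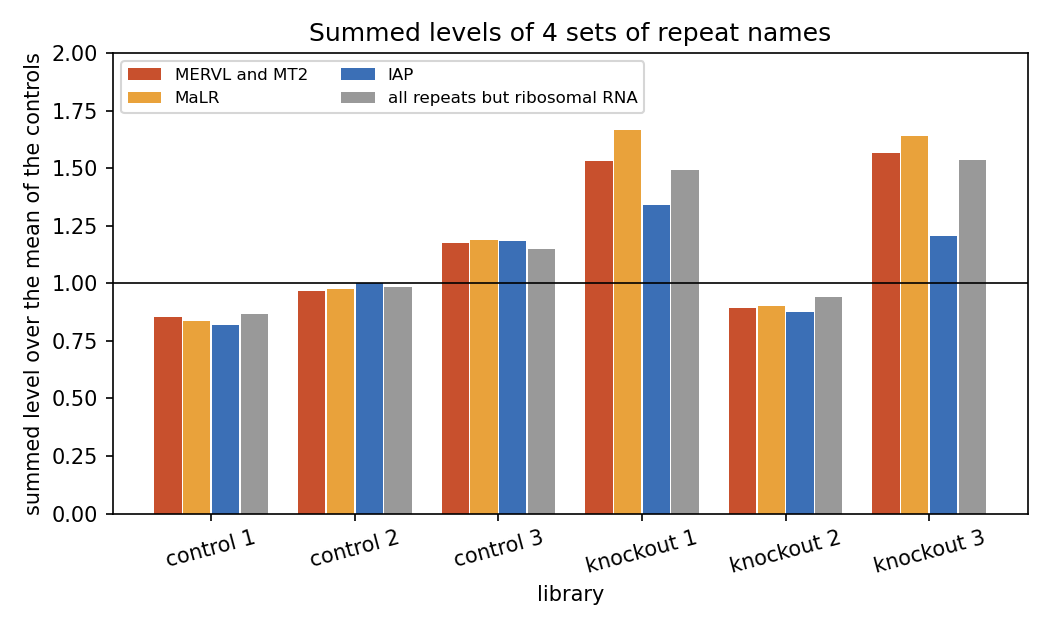
Summed level of the MERVL and MT2, MaLR and IAP names and of all repeat names other than ribosomal RNA, each divided by its mean over the 3 controls (bars, 6 libraries). MERVL and MT2 stand at 1.53, 0.89 and 1.57 in knockouts 1, 2 and 3, MaLR at 1.66, 0.90 and 1.64, and all repeats other than ribosomal RNA at 1.49, 0.94 and 1.53. IAP stands lower than these in knockouts 1 and 3, at 1.34, 0.87 and 1.20 in knockouts 1, 2 and 3.

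Genes that share the 2-cell programme with MERVL were almost silent in both groups. Of 29 such genes in the files 23 had 0 counts in all 6 libraries, among them the 6 Zscan4 genes (Zscan4a to Zscan4f), Tcstv1, Tcstv3 and the 5 Tdpoz genes. Over 169292713 gene counts, 0 counts allow up to 0.0177 CPM (3 counts over all libraries). Dux, the homeobox activator of MERVL, had 1 count in all, in knockout 3. Since reads of multiple alignment were not counted, near-identical copies such as the Zscan4 and Usp17l genes could be missed in part. The 4 genes with enough counts to be tested gave no call, with or without knockout 2. Of all genes, 1.51% of 15075 were called with all libraries and 10.8% without knockout 2, and 4 genes are too few to set apart from those shares. Sp110, a nuclear body gene of the interferon response, had 22, 21 and 17 counts in controls against 8, 10 and 10 in knockouts, with a log2 fold of -1.01 ± 0.31 (SE) that missed the threshold (edgeR, adjusted p = 0.145). Usp17la, a deubiquitinase gene with near-identical copies, had 13, 18 and 20 counts against 38, 16 and 31, at 0.82 ± 0.38 with an adjusted p of 0.273. In Usp17la, too, knockout 2 lay among the controls. Arg2, a mitochondrial arginase gene, was at -0.56 and Zfp352, a zinc finger gene of the 2-cell embryo, at -0.34, from 12, 14 and 9 counts in controls against 9, 8 and 9. The median of the 4 was -0.45, against 0.00 over all genes.

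Genes of the silencing machinery of MERVL gave no call. None of the 34 tested was called by edgeR, too few genes to set apart from the same 1.51% of all genes. Folds were above 0 for 17 and below 0 for 17, from -0.23 to 0.53, with a median of 0.00. Trim28, the corepressor that brings H3K9 methylation to retroviral elements, had 639.6 ± 22.7 CPM in controls and 566 ± 39.5 in knockouts (SD, n = 3), which gave -0.18 ± 0.08 (SE) on the log2 scale and 0.282 as the adjusted p from edgeR. The 6 genes with the smallest p also took in Cbx1, which encodes the heterochromatin protein HP1 beta, at -0.23 ± 0.07 and Smarcad1, a chromatin remodeller, at -0.18 ± 0.06. Dnmt1, the maintenance DNA methyltransferase, stood at 0.17 and D14Abb1e, also known as Fam208a and a subunit of the HUSH silencing complex, at 0.20. Adjusted p-values of these 4 ran from 0.134 to 0.255. By CPM the groups did not overlap for 9 of the 34, Cbx1, Smarcad1, Dnmt1, Trim28 and Ring1 among them, and for 24.1% of all tested genes.

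Ring1, a Polycomb E3 ligase gene, was highest in knockouts 1 and 3, with knockout 2 close to the controls and, by CPM, just above them. It had 463, 447 and 436 counts in controls against 651, 437 and 755 in knockouts, with a log2 fold of 0.53 ± 0.17 (SE) that missed the threshold (edgeR, adjusted p = 0.148). Without knockout 2 it was the 1 gene of this list called, at 0.72 with an adjusted p of 0.00197, in a fit that called 10.8% of 15348 genes. Zfp42 and Dnmt3l, genes of early embryo and germ line, had too few counts to be tested, with 0 to 6 counts per library.

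Activators of the 2-cell programme gave no call either, with or without knockout 2 (1.51% and 10.8% of all genes). Of 14 such genes in the files only 4 were tested, too few to set apart from those shares, and Nfya, a subunit of the CCAAT-binding factor NF-Y, had the smallest p. It had 96.9 ± 5.31 CPM in controls and 81.1 ± 4.09 in knockouts (SD, n = 3), which gave -0.26 ± 0.08 (SE) on the log2 scale and 0.133 as the adjusted p from edgeR. Nelfa, a subunit of the negative elongation factor, was at 0.05, and the GATA factor genes Gata2 and Gata3 were at -0.12 and 0.15. By CPM the groups did not overlap for 3 of the 4, Nfya (lower in knockouts), Nelfa and Gata3 (both higher), and for 24.1% of all tested genes. Dppa2 and Dppa4, which act upstream of Dux, had 1 to 5 counts per library and were not tested, and the homeobox gene Obox3 had 1 to 9.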

How the data were processed

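For each of the 6 embryo libraries the authors deposited raw counts per gene symbol and per repeat name. The labels' protocols give a stranded KAPA library of polyadenylated RNA. Trimmomatic, TopHat2, Bowtie2, HTSeq and mm9 are listed in the submitters' processing notes, while strand setting, tool versions and annotations were not given in the sources used here. Alignments to several places were not counted (18.2% to 22.6% of alignments), which lowers young repeats most. Both tables hold the same number of alignments per library, so a read can count for a gene and for a repeat inside it.

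Repeat names were tested with edgeR 4.0.16 (R 4.3.3) by quasi-likelihood F tests with a robust fit and group as the only term. The library size was the gene count total, and the filter was filterByExpr (minimum count 10, minimum total 15). Benjamini-Hochberg adjustment ran over all 853 names, with calls at 0.05. Genes were fitted likewise with TMM scaling and CPM. The SE is the fold over the square root of F. Rows that name no feature were left out, among them alignments outside genes (9.79% to 18.3%). DESeq2 1.42.0, limma 3.58.1, other library sizes, no filter, the replicate number as a block and leaving out each library were alternatives. Named were all members, H3f3a and H3f3b, and from each gene list the called genes, the 6 with the smallest p and 2-cell genes with at least 10 counts. Genes of few counts that complete a list were named after their values were seen. Members and lists were chosen with earlier results of these data known. Older symbols were matched through a GRCm38 RefSeq table (Fam208a as D14Abb1e), 4 listed entries without a match (Duxf3 and the Zscan4 pseudogenes) were left out, and no repeat sequence or coordinate is given.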

Additional observations from a re-analysis of the deposited data

How the results depend on the processing

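No member was called under any setting tried except without knockout 2, and all 7 folds were above 0 under every setting based on gene counts. Leaving out each library gave 0 to 6 members called, 0 to 574 of all repeat names and 0 to 1 of the silencing genes, with the highest number each time without knockout 2. DESeq2 called 2 of all repeat names. With repeat totals and TMM factors, MERVL_2A-int (-0.24), MT2A (-0.13), MT2B2 (-0.13) and MT2_Mm (-0.11) turned below 0, and the log2 ratio of summed levels went from 0.41 to -0.11. With reads outside genes as library size, added after seeing the data, they were at -0.25, -0.14, -0.14 and -0.13 and the sum at -0.12. Per repeat count outside ribosomal RNA names, also added, the sum was at 0.0016. Repeat TMM factors bring the typical fold of repeat names near 0 by construction, and the part of anything else in these changes was not tested. Without single libraries the sum lay between 0.28 (without knockout 3) and 0.63 (without knockout 2). With the replicate block 0 members and 0 of all names were called, with the member median at 0.37, and the block changed no call. Deviations of same-numbered embryos correlated at -0.10, 0.23 and 0.31 over genes, which does not settle whether the numbers mark pairs. The main fit did not take them as pairs. With gene totals the biological coefficient of variation of the repeat counts was 30.7%.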
